A study of Mus musculus with 10 samples.

Results

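The amino acid transporters of the Slc1a, Slc3a, Slc7a, Slc36a, Slc38a and Slc43a families were followed in gastrocnemius, a calf muscle made mostly of fast fibres. Every gene was taken whose symbol is one of these family names and a number with nothing after it, which gave 40 of the 18025 genes in the deposited tables. Messenger RNA of C57BL/6 mice of wild-type genotype, whose age is given as 8 weeks, had been sequenced in 5 samples labelled COPD and 5 labelled control. The series' title says that chronic obstructive pulmonary disease (COPD) was modelled by cigarette smoke; the length and dose of exposure and the treatment of the controls are not given in the labels. Nothing in the labels ties each sample to a separate animal, so the p-values cover only the spread among these libraries, which may be technical. In whole-muscle RNA, fewer cells of a type and less RNA per cell cannot be told apart.

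Amino acids cross membranes through carriers that differ in substrate and in driving force. System A and system N carriers (Slc38a) take up alanine, glutamine and other neutral amino acids with sodium, the Slc1a family moves glutamate or exchanges small neutral amino acids, and most of the Slc7a light chains work only as pairs with a heavy chain of the Slc3a family. Muscle is a main store of free glutamine and takes up leucine, arginine and alanine through these proteins, and some members at the lysosome (Slc36a1, Slc38a9) take part in sensing amino acids for the growth kinase complex mTORC1.

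Library totals lay between 14085854 and 17163590 expected counts in COPD and between 15637218 and 17251034 in control, a difference that did not pass a two-sided exact permutation test (p = 0.119). Defining genes of skeletal muscle (Acta1, Ckm, Myh4 and 5 others) summed to between 175679 and 200876 TPM in COPD and between 133339 and 210630 TPM in control, where TPM is abundance per transcript length on a common total. Counts of the Y-linked Ddx3y, Eif2s3y and Kdm5d came to 1118 and 1258 counts in COPD replicates 2 and 3 and to 3 or 4 in COPD replicates 1, 4 and 5, against 1441 to 1974 counts in control. The labels give no sex. COPD replicates 1, 4 and 5 nearly lacked these transcripts and no control did, so the groups were unbalanced in them and, as far as these counts tell sex, in sex. The fit over all 10 libraries does not adjust for this, and its part in the fold changes was not tested. The fit over the 7 libraries with such counts is given beside several of the results that it moved. COPD replicate 5 stood apart from the other COPD libraries for several of the genes below, and such results are given with and without it. It was singled out after these values were seen, so a gene that passes only without it gains no separate support from that fit.

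Of the 40 genes, 26 passed the filter on low counts and were tested. The other 14 had at most 17 counts in any library. Of these, 12 had at most 9 counts, among them the astrocyte glutamate transporter gene Slc1a2, the cystine-glutamate exchanger gene Slc7a11 and the cationic amino acid transporter gene Slc7a3. Slc36a3, Slc38a5 and Slc7a9 had at most 1 count. The other two, Slc7a10 and Slc38a1, reached 17 and 12 counts in 1 library each.

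The muscle's amino acid transporter RNA was led by the Slc38a family. Slc38a3, the system N carrier of glutamine, histidine and asparagine, averaged 205 ± 52.7 TPM in COPD and 142 ± 25.7 TPM in control (SD, n = 5 each). It alone made up between 34.3 and 46.5% of the summed TPM of the 40 genes in COPD libraries and between 27.7 and 39.8% in control libraries. Slc38a2, a system A carrier of alanine and glutamine, was next at 69.6 ± 31.9 TPM in COPD and 59.6 ± 13.6 TPM in control, followed by the heavy chain gene Slc3a2 at 44.7 ± 6.91 and 48.7 ± 7.53 TPM. Slc43a3, which carries purine nucleobases although its relatives carry amino acids, was at 36.5 ± 14.2 TPM in COPD and 48.0 ± 15.1 TPM in control. In all, 11 genes averaged 10 TPM or more over the 10 libraries, 10 averaged between 1 and 10 TPM and 5 less than 1 TPM. The leucine exchanger gene Slc7a5, at 1.14 ± 0.544 TPM in COPD and 1.06 ± 0.457 TPM in control, was among the low ones.

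**Figure D1:**
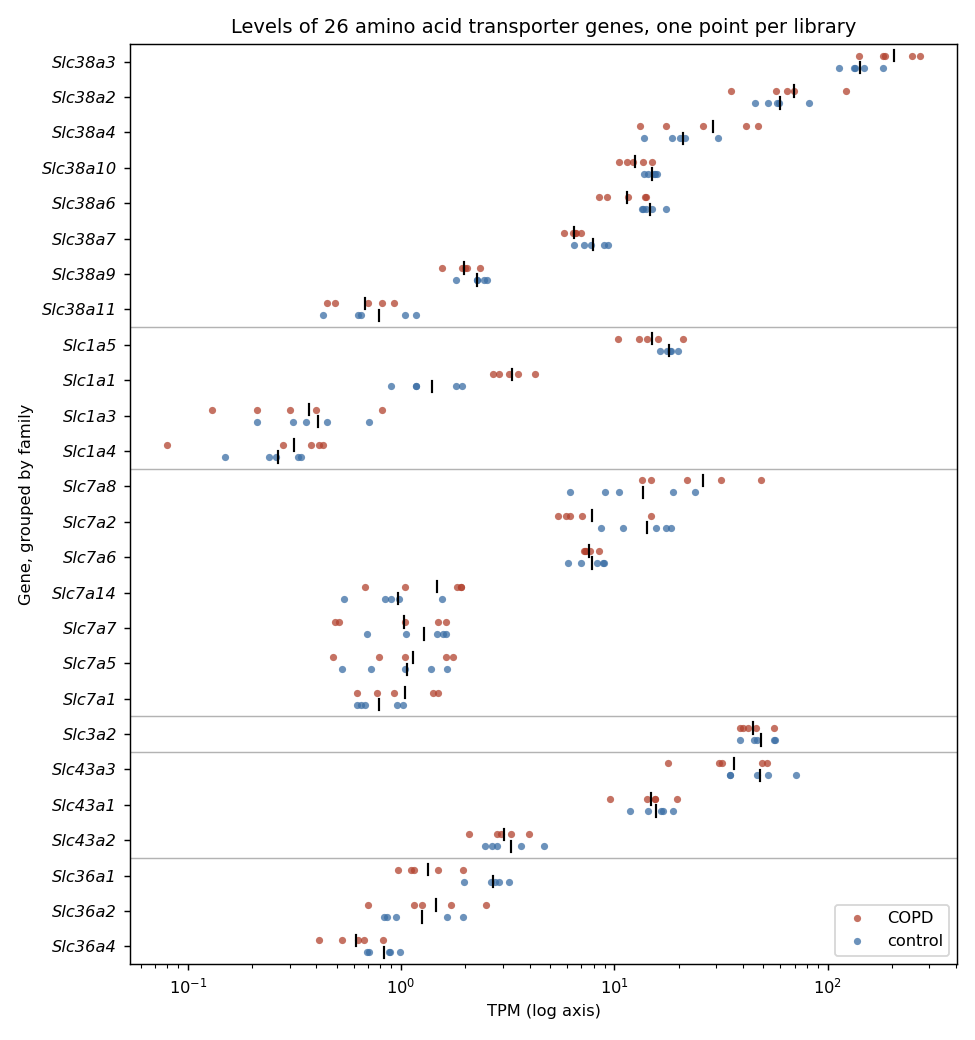
TPM of the 26 tested genes on a log axis, by family, with 1 point per library, COPD above control in each row, and a short line at the mean of 5 libraries. Slc38a3 is highest in both groups, at 205 and 142 TPM, and Slc1a1 and Slc36a1 are the genes whose COPD and control points do not overlap on this scale.

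The comparison of COPD with control asks which of these carriers differ in the muscle of the disease model. Of the 26 tested genes 1 was higher in COPD and 0 were lower (adjusted p under 0.05 by the quasi-likelihood test of edgeR, Benjamini-Hochberg over all genes tested), where 0.0551% of all 12697 genes tested were called higher and 0.00788% were called lower. With no adjustment, 7 of the 26 had a p under 0.05, of which 5 were higher and 2 lower, where this limit took 14.6% of all genes tested, 7.94% higher and 6.64% lower. DESeq2, run without this filter but with its own filter on mean count, called 3 of the 40 genes, 2 higher and 1 lower. Its own filter left low genes, such as Slc7a11, Slc1a2 and Slc7a10, without an adjusted p, so these could not be called. It called 2.31% of 17925 genes, a total that includes genes without an adjusted p. The log2 fold changes of the 26 ran from -0.82 to 1.45 with a median of 0.09, and 16 were above 0, beside a median of -0.01 over all genes tested. Scaling by library size alone moved the median of all genes tested to -0.17 and that of the 26 to -0.06.

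Slc1a1 was the gene that passed. It encodes a sodium-coupled transporter of glutamate, aspartate and cysteine. Its level, in CPM (counts relative to the TMM-scaled library total), was 7.02, 10.8, 6.91, 8.21 and 7.35 in COPD replicates 1 to 5, against 1.86, 3.96, 2.79, 3.72 and 2.38 in control replicates 1 to 5. All COPD libraries lay above all control libraries, which held for no other of the 26 genes and for 1.29% of all genes tested. The log2 fold change was 1.45 ± 0.22 (SE; adjusted p = 0.0362, edgeR), a 2.73-fold difference between 8.06 ± 1.62 CPM in COPD and 2.94 ± 0.888 CPM in control (SD, n = 5 each). Leaving out each library in turn kept the log2 fold change between 1.32 and 1.58, with edgeR's adjusted p between 0.00926 and 0.108; it passed without COPD replicate 3 and without COPD replicate 5 and not in the other 8 fits. Over the 7 libraries with Y-linked counts the log2 fold change was 1.60 ± 0.29 (adjusted p = 0.0231, edgeR). Exons of Slc1a1 overlap those of 4430402I18Rik on the opposite strand, by up to 1524 bases in the GRCm38 annotation, and no source used here tells whether reads were counted by strand. 4430402I18Rik itself was at 2.85 ± 0.759 CPM in COPD and 2.66 ± 0.786 CPM in control (log2 fold change 0.10 ± 0.24, adjusted p = 0.896, edgeR). The other tested glutamate carrier, the glial gene Slc1a3, was at 0.997 ± 0.679 CPM in COPD and 0.972 ± 0.433 CPM in control.

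The next smallest p belonged to Slc38a3, the most abundant of the carriers. It was at 240, 309, 295, 377 and 411 CPM in COPD replicates 1 to 5, against 251, 201, 177, 180 and 179 CPM in control replicates 1 to 5. The groups overlapped through COPD replicate 1 and control replicate 1 alone. The log2 fold change was 0.72 ± 0.16 (adjusted p = 0.0887, edgeR), which did not pass over all 10 libraries. It passed by DESeq2 (adjusted p = 0.00142), by voom with sample weights (adjusted p = 0.0499) and by edgeR without COPD replicate 5 (log2 fold change 0.63 ± 0.15, adjusted p = 0.0482). It missed in all other settings. Among them were the 7 libraries with Y-linked counts (adjusted p = 0.0636, edgeR) and library size alone (adjusted p = 0.101, edgeR). Others were limma on log2(TPM + 1) (adjusted p = 0.121) and a replicate block (adjusted p = 0.203, edgeR). EdgeR's adjusted p ran from 0.0482 to 0.192 over the fits that left out 1 library.

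Slc36a1, a proton-coupled carrier of glycine, alanine and proline that sits partly on lysosomes, had the opposite sign. It was at 3.54, 5.40, 3.75, 3.80 and 6.31 CPM in COPD replicates 1 to 5, against 8.13, 9.35, 8.84, 5.77 and 8.18 CPM in control replicates 1 to 5. The CPM ranges overlapped because COPD replicate 5 lay above control replicate 4. The log2 fold change was -0.82 ± 0.19 (adjusted p = 0.0974, edgeR), which did not pass over all 10 libraries. It passed by DESeq2 (adjusted p = 0.0109), by voom with sample weights (adjusted p = 0.0417) and by edgeR without COPD replicate 5 (log2 fold change -0.96 ± 0.18, adjusted p = 0.0215). It missed in all other settings. Among them were library size alone (adjusted p = 0.0503, edgeR) and limma on log2(TPM + 1) (adjusted p = 0.0519). Others were the 7 libraries with Y-linked counts (adjusted p = 0.0939, edgeR) and a replicate block (adjusted p = 0.154, edgeR). Over the fits that left out 1 library edgeR's adjusted p ran from 0.0215 to 0.226. On the TPM scale its groups did not overlap, at 0.97 to 1.95 in COPD and 1.97 to 3.22 in control, a scale on which COPD lay wholly below control for 5.28% of all genes tested. Its relative Slc36a4, a carrier of proline and tryptophan, had a log2 fold change of -0.25 ± 0.21 and Slc36a2 one of 0.45 ± 0.35, neither past the threshold (adjusted p = 0.624 and 0.592, edgeR).

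The bases before the starts of Slc1a1 and Slc36a1 are shown because these genes had the largest differences in each direction. They are the 250 bases upstream of the RefSeq transcript start in build GRCm38.p6, with any match to a searched motif in capitals.
Slc1a1 (chr19:28834885-28835134, plus strand): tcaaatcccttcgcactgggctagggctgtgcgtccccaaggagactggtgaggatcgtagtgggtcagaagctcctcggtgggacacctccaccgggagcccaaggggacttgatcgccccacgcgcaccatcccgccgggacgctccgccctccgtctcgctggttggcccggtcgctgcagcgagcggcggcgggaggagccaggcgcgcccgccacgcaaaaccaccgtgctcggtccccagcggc
Slc36a1 (chr11:55204090-55204339, plus strand): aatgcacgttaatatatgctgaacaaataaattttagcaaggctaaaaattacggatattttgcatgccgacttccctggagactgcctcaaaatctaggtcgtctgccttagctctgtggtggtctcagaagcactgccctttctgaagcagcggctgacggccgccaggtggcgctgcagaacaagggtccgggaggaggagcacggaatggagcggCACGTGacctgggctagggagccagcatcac
The capitals in Slc36a1 mark CACGTG, the E-box bound by clock factors, by Myc and by the lysosomal regulator TFEB. Such windows were at hand for 30 of the 40 genes, 41 windows in all. Slc38a3 and Slc7a2 were among the genes without one and were not searched. Searched on both strands, this motif was in 7 of the 41 windows, and in 6.02% of 32851 windows of all genes. Besides Slc36a1, the windows were those of Slc38a7, Slc43a1, Slc7a14 and the untested Slc1a6, Slc1a7 and Slc38a5. The log2 fold change over all libraries was below 0 for Slc38a7 and above 0 for Slc43a1 and Slc7a14. Whether the motif plays a part in any of these levels was not tested. The element of C/EBP and ATF factors, TGATGNAAN, was in 3 of the 41, in windows of Slc7a11 and Slc7a7, and in 3.44% of all. The full glucocorticoid element was in 0 of the 41 and in 0.0609% of all. No searched motif was in the Slc1a1 window.

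Both tested carriers of cationic amino acids, Slc7a1 and Slc7a2, had an unadjusted p under 0.05, with opposite signs. Slc7a2, which takes up arginine, lysine and ornithine, was at 29.5, 33.1, 34.9, 28.6 and 71.1 CPM in COPD replicates 1 to 5, against 75.1, 78.9, 54.6, 37.3 and 65.1 CPM in control replicates 1 to 5. COPD replicates 1 to 4 lay below every control, while COPD replicate 5 lay above 3 of the controls. The log2 fold change was -0.66 ± 0.27 (adjusted p = 0.289, edgeR) over all libraries and -0.98 ± 0.19 (adjusted p = 0.0261, edgeR) without COPD replicate 5. Over all 10 fits that left out 1 library edgeR's adjusted p ran from 0.0261 to 0.482. Among the 7 libraries with Y-linked counts the log2 fold change of Slc7a2 was -0.86 ± 0.26 (adjusted p = 0.105, edgeR). Macrophages, in mouse, also express this gene, and a list of 9 macrophage markers summed to between 43.3 and 91.3 TPM in COPD replicates 1 to 4, 141 TPM in COPD replicate 5 and 106 to 185 TPM in control. Control replicate 4 had the highest marker sum, 185 TPM, and the lowest Slc7a2 among controls; the part of macrophages in the difference was not tested. Slc7a1, the widely expressed arginine transporter, was at 7.02, 3.03, 6.76, 3.39 and 4.04 CPM in COPD replicates 1 to 5, against 3.78, 2.43, 2.93, 2.66 and 3.87 CPM in control replicates 1 to 5 (log2 fold change 0.62 ± 0.26, adjusted p = 0.296, edgeR). COPD replicates 1 and 3 stood above the rest, and the other COPD libraries lay inside or near the control range.

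**Figure D2:**
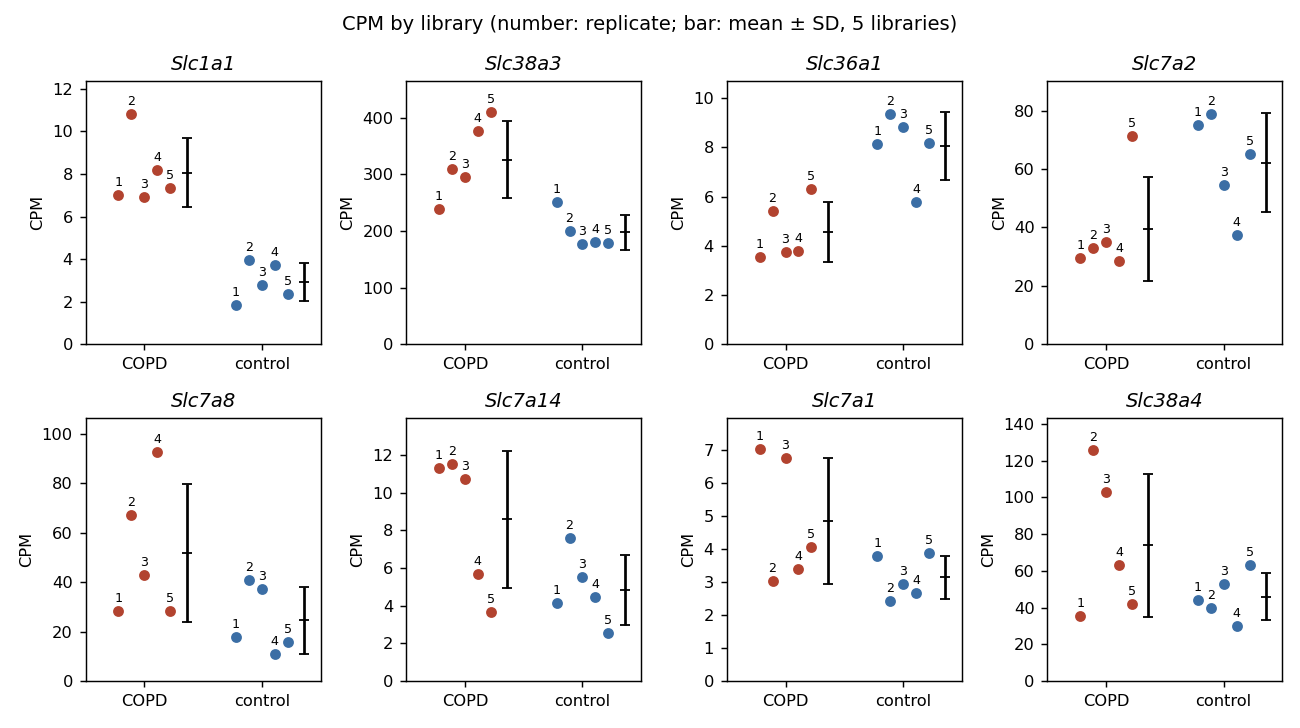
CPM of 8 genes in each library, COPD left and control right in every panel, with the replicate number at each point and the mean ± SD of 5 libraries beside it. Only in the Slc1a1 panel do the groups not overlap, and in the Slc7a2 panel COPD replicate 5, at 71.1 CPM, lies among the controls.

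Slc7a8 and Slc7a14 completed the genes with an unadjusted p under 0.05. Slc7a8, the light chain LAT2 that exchanges neutral amino acids such as leucine and glutamine, was at 28.1, 67.2, 42.9, 92.8 and 28.4 CPM in COPD replicates 1 to 5, against 17.9, 40.9, 37.2, 10.9 and 15.9 CPM in control replicates 1 to 5. The COPD libraries spread 3.30-fold and the controls 3.75-fold, and the groups overlapped. The log2 fold change was 1.08 ± 0.41 (adjusted p = 0.262, edgeR). Slc7a14, a lysosomal relative of the cationic transporters whose substrates are less settled, was at 11.3, 11.5, 10.7, 5.70 and 3.67 CPM in COPD replicates 1 to 5, against 4.12, 7.57, 5.52, 4.44 and 2.54 CPM in control replicates 1 to 5. COPD replicates 1 to 3 lay above all controls and COPD replicates 4 and 5 within their range (log2 fold change 0.83 ± 0.34, adjusted p = 0.291, edgeR). These 2 genes also missed edgeR's threshold without COPD replicate 5 (adjusted p = 0.127 for Slc7a8 and 0.0815 for Slc7a14). Among the 7 libraries with Y-linked counts the log2 fold change of Slc7a14 was 1.22 ± 0.31 (adjusted p = 0.0696, edgeR).

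The 4 large neutral carriers had fold changes above 0 in the fit over all libraries, a sign that did not hold for Slc43a1 and Slc43a2 under other settings, and 0 of the 4 passed edgeR's threshold, with 1 (Slc7a8) at an unadjusted p under 0.05 and 0 called by DESeq2. Their median log2 fold change was 0.23, beside -0.01 over all genes tested. Slc43a1, a facilitated carrier of leucine, valine and phenylalanine, was at 36.8, 28.0, 23.9, 24.8 and 15.2 CPM in COPD replicates 1 to 5, against 20.7, 27.4, 27.8, 17.5 and 23.8 CPM in control replicates 1 to 5 (log2 fold change 0.13 ± 0.21, adjusted p = 0.814, edgeR), and its sign turned to -0.015 with library size alone and to -0.089 on log2(TPM + 1). Slc43a2, of the same function, and Slc7a5 had log2 fold changes of 0.07 ± 0.21 and 0.33 ± 0.39. That of Slc7a5 was 0.64 ± 0.40 among the 7 libraries with Y-linked counts. The sign of Slc43a2 turned to -0.077 with library size alone, to -0.073 on log2(TPM + 1), to -0.093 on log2(TPM + 0.1) and to -0.020 with voom. It also turned to -0.24 among the Y-linked libraries, to -0.038 without COPD replicate 5, to -0.0083 without control replicate 2 and to -0.024 without control replicate 4. Slc43a3 was at 30.9, 52.5, 52.2, 79.9 and 74.8 CPM in COPD replicates 1 to 5, against 48.9, 97.7, 83.0, 63.8 and 46.2 CPM in control replicates 1 to 5. The groups overlapped (log2 fold change -0.22 ± 0.26, adjusted p = 0.746, edgeR).

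**Figure D3:**
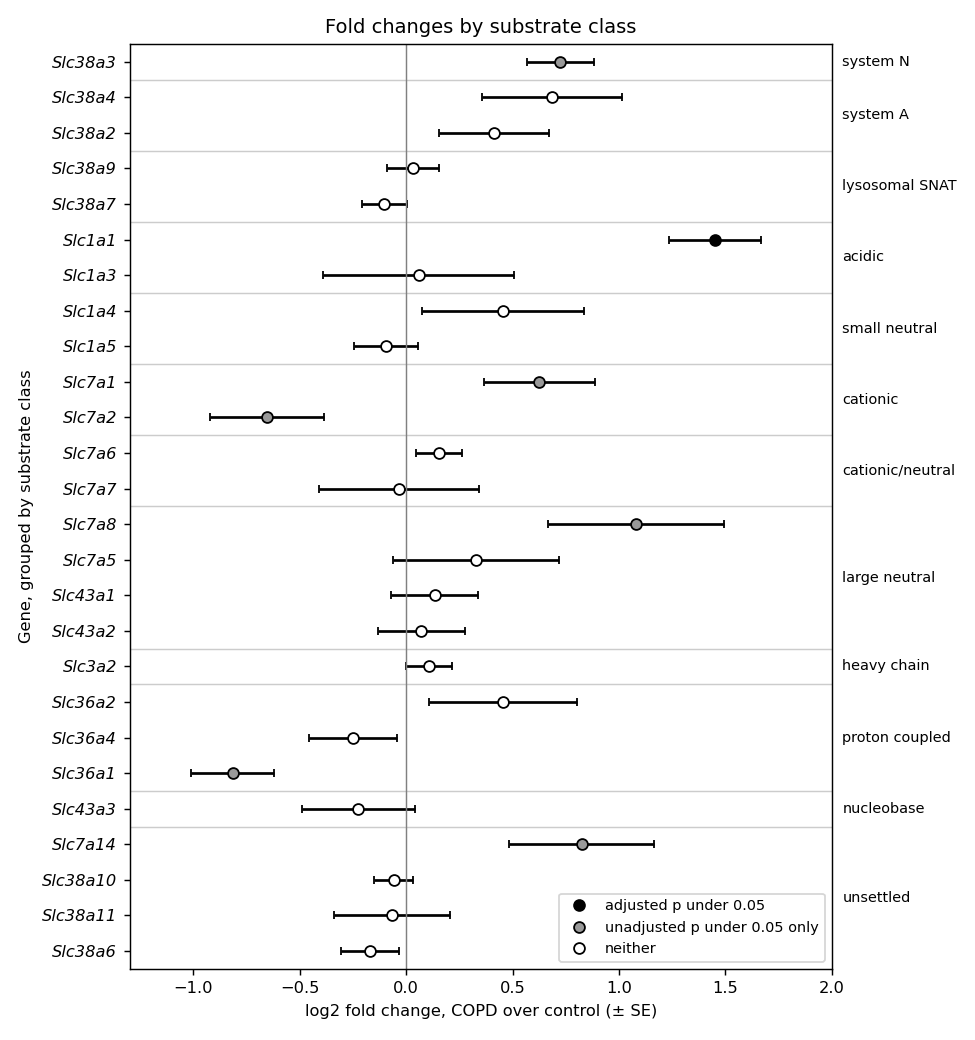
log2 fold change of COPD over control with its standard error for the 26 tested genes, grouped by substrate class. Slc1a1 is the one filled black (adjusted p under 0.05), the 6 grey points had an unadjusted p under 0.05 only, and signs are mixed within 6 of the 9 classes that hold 2 or more genes.

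Slc3a2, the heavy chain that carries LAT1, LAT2 and other light chains to the membrane, was at 61.7, 55.0, 52.7, 54.1 and 73.1 CPM in COPD replicates 1 to 5, against 52.3, 60.2, 53.6, 57.5 and 51.7 CPM in control replicates 1 to 5. The groups overlapped and the log2 fold change was 0.11 ± 0.11 (adjusted p = 0.693, edgeR), with its sign turning to -0.051 with library size alone and to -0.12 on log2(TPM + 1). Per transcript length, the 6 light chain genes that pair with it (Slc7a5, Slc7a6, Slc7a7, Slc7a8, Slc7a10 and Slc7a11) summed to between 23.4 and 58.7 TPM in COPD and between 17.4 and 34.6 TPM in control. Divided by the TPM of Slc3a2 this was 0.466 to 1.38 in COPD and 0.307 to 0.701 in control. The summed light chains exceeded the heavy chain in COPD replicates 2 and 4 alone, where Slc7a8 made up 78.0 and 82.7% of them. Slc7a6, an exchanger of cationic for neutral amino acids, was at 18.03 ± 0.837 CPM in COPD and 16.2 ± 2.08 CPM in control (log2 fold change 0.15 ± 0.11, adjusted p = 0.548, edgeR), and its sign turned to -0.0094 with library size alone and to -0.025 on log2(TPM + 1).

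**Figure D4:**
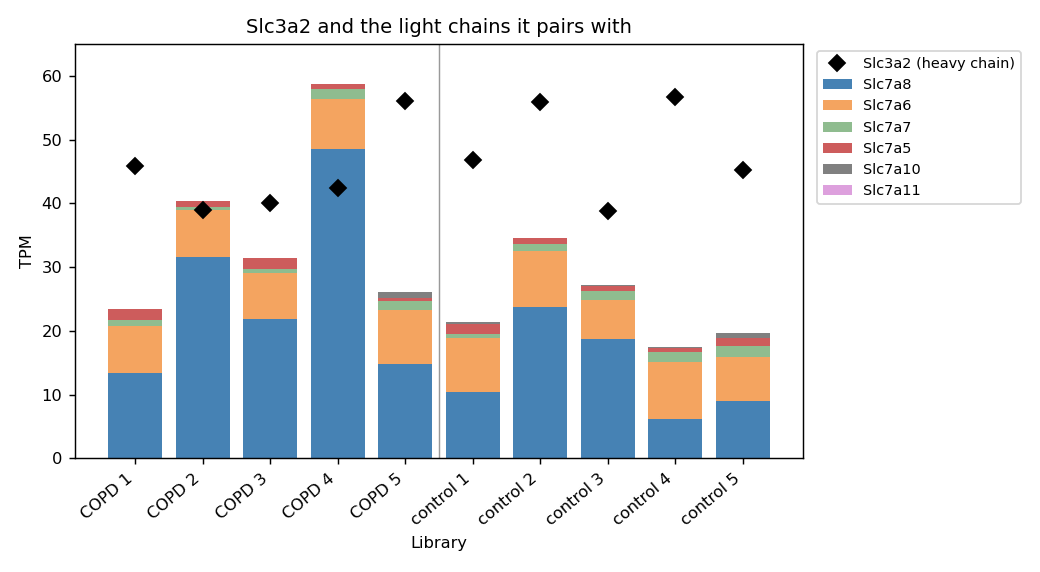
TPM of the light chain genes stacked per library, with black diamonds for the heavy chain gene Slc3a2; COPD libraries are left of the line and control libraries right. Slc7a8 is the largest share in all libraries but control replicate 4, and Slc3a2 stays between 38.9 and 56.7 TPM in all 10.

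The system A genes varied widely within COPD. Slc38a4, named here because of its values, was at 35.6, 126, 103, 63.0 and 41.9 CPM in COPD replicates 1 to 5, against 43.8, 39.6, 52.8, 29.9 and 63.4 CPM in control replicates 1 to 5. COPD replicates 2 and 3, the COPD libraries with Y-linked transcripts, lay above every other library. Its log2 fold change was 0.69 ± 0.33 (adjusted p = 0.358, edgeR) over all libraries and 1.33 ± 0.23 (adjusted p = 0.0196, edgeR) over the 7 libraries with Y-linked counts, a fit in which COPD is those 2 libraries and 3.7% of all genes tested were called. Slc38a2 was at 112, 181, 357, 199 and 181 CPM in COPD replicates 1 to 5, against 117, 148, 173, 133 and 203 CPM in control replicates 1 to 5 (log2 fold change 0.41 ± 0.26, adjusted p = 0.496, edgeR). Its COPD mean depended on replicate 3, and the log2 fold change was 0.13 without it and 0.81 ± 0.26 (adjusted p = 0.128, edgeR) over the 7 libraries with Y-linked counts.

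Among the lysosomal and less studied Slc38a members 0 of 5 had an unadjusted p under 0.05. Slc38a9, the lysosomal arginine sensor of mTORC1, was at 10.2 ± 1.37 CPM in COPD and 10.01 ± 0.866 CPM in control (log2 fold change 0.03 ± 0.12). Its sign turned under several settings, such as to -0.13 with library size alone, to -0.14 on log2(TPM + 1), to -0.020 without COPD replicate 5 and to -0.012 without control replicate 3. Slc38a7, which exports glutamine and asparagine from lysosomes, was at 13.5 ± 0.771 CPM in COPD and 14.5 ± 1.69 CPM in control (log2 fold change -0.10 ± 0.11). Slc38a10 and Slc38a6 had log2 fold changes of -0.06 ± 0.09 and -0.17 ± 0.13. Slc38a11 was the most spread of them, at 1.88 ± 0.352 CPM in COPD and 1.98 ± 0.790 CPM in control, where it ran between 1.16 and 3.19 CPM (log2 fold change -0.07 ± 0.27, and 0.17 without control replicate 3). Slc1a5, which exchanges glutamine and small neutral amino acids, was at 24.0, 18.9, 28.3, 23.7 and 35.5 CPM in COPD replicates 1 to 5, against 27.4, 24.6, 32.3, 26.7 and 28.5 CPM in control replicates 1 to 5. The groups overlapped, with the highest and the lowest level both in COPD (log2 fold change -0.10 ± 0.15, adjusted p = 0.821, edgeR). Slc1a4, at 0.801 ± 0.359 and 0.585 ± 0.160 CPM, was near the counting limit.

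A few low carriers mark cell types other than muscle fibres. Slc7a10, a small neutral exchanger known in mouse as a surface marker of white fat cells, had 0, 0, 0, 0 and 17 counts in COPD replicates 1 to 5, against 4, 0, 3, 3 and 11 counts in control replicates 1 to 5. The fat cell hormone gene Adipoq had 3, 6, 4, 15 and 110 counts in the same COPD libraries, against 48, 10, 18, 23 and 88 in the control libraries. Both genes were highest in COPD replicate 5 and control replicate 5, but the sum of all 6 fat cell markers was not. That sum was 467, 492, 459, 790 and 796 TPM in COPD replicates 1 to 5, against 606, 623, 673, 640 and 519 TPM in control replicates 1 to 5, so it was as high in COPD replicate 4, with 0 Slc7a10 counts, as in COPD replicate 5, and lowest among controls in replicate 5. Adipoq was at 1.37 TPM in COPD replicate 4 and 9.16 TPM in COPD replicate 5, so other genes made up nearly all of the sum. Slc36a2, which in mouse marks brown and beige fat cells and also occurs in muscle, was at 3.77, 1.04, 2.35, 1.49 and 1.78 CPM in COPD replicates 1 to 5, against 1.92, 1.12, 1.13, 1.11 and 2.27 CPM in control replicates 1 to 5. Slc7a7, an exchanger with a known role in macrophages, was lowest in COPD replicates 2 and 3, at 0.67 and 0.44 CPM, the libraries with the lowest macrophage marker sums of 43.3 and 56.8 TPM. It was highest in COPD replicate 4, at 1.97 CPM, where that sum was 82.3 TPM. Its log2 fold change was -0.033 over all libraries, between -0.30 and 0.18 with 1 library left out, and -1.10 ± 0.42 (adjusted p = 0.182, edgeR) over the 7 libraries with Y-linked counts. Exons of Slc7a7 overlap those of Oxa1l, and exons of Slc7a10 those of Lrp3, by up to 232 and 237 bases in the GRCm38 annotation. Both overlaps are with the opposite strand, and it is not known whether reads were counted by strand. Whether cell makeup or these overlaps contribute to the levels of these carriers was not tested.

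**Figure D5:**
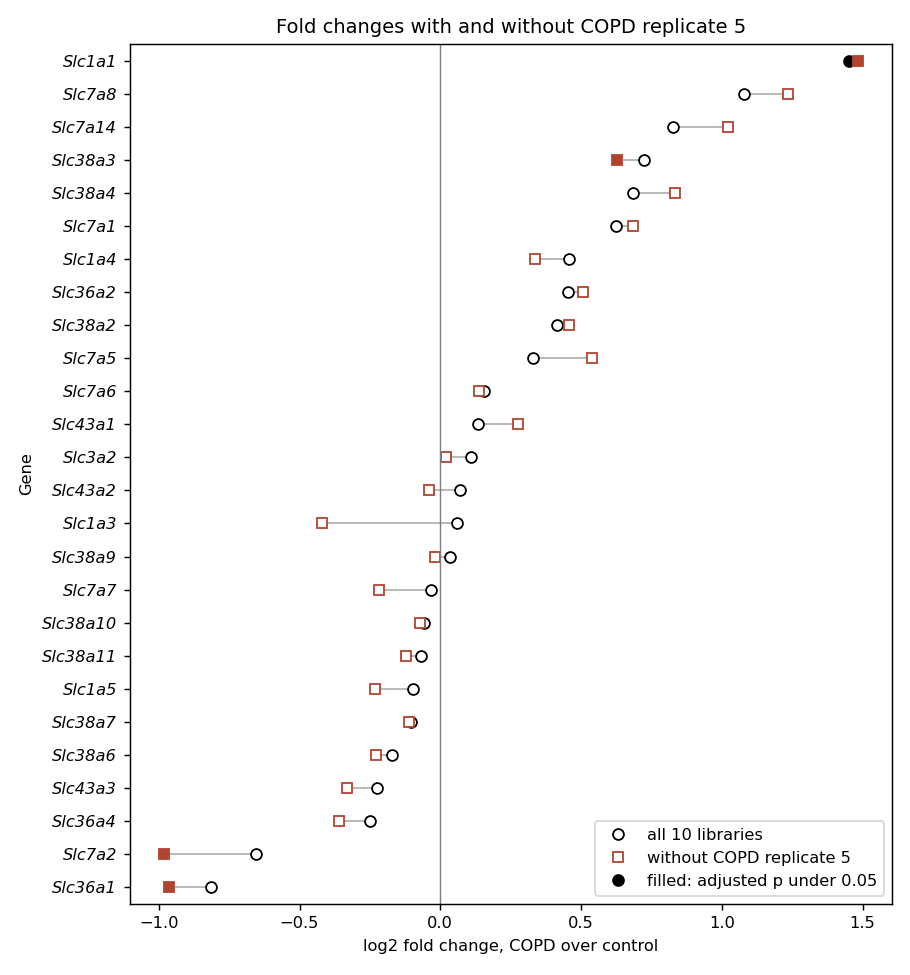
log2 fold change of COPD over control for the 26 tested genes with all 10 libraries (circles) and without COPD replicate 5 (squares), filled where edgeR's adjusted p was under 0.05. Leaving it out adds Slc38a3, Slc36a1 and Slc7a2 to Slc1a1. COPD replicate 5 was picked after its values in these genes were seen.

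Without COPD replicate 5, edgeR called 4 of the 26 genes, Slc1a1 and Slc38a3 higher and Slc36a1 and Slc7a2 lower, out of 410 calls among 12762 genes (3.21%). That library was picked because of its values in these same genes, and no other fit that left out 1 library called as many. With all libraries the log2 fold change of Slc1a3 was 0.06 ± 0.45, and without that library -0.42 ± 0.42, since COPD replicate 5 held the highest Slc1a3 level of all, 2.08 CPM. It was -0.70 ± 0.55 among the 7 libraries with Y-linked counts, which also leave out COPD replicate 5.

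Genes around the carriers were read from 5 lists. The share of each list with an unadjusted p under 0.05 is to be read against the 14.6% of all genes tested. DESeq2 calls are to be read against the 2.31% of all genes that it called. The numbers of tested genes below are those of edgeR. DESeq2 was run on 9 enzymes of glutamate, glutamine and alanine, 22 starvation response genes and 20 genes of branched-chain breakdown. It was also run on 28 genes of lysosomal sensing and 17 other carriers. Among 8 tested enzymes of glutamate, glutamine and alanine 0 were called by edgeR or DESeq2 and 2 (25%) had an unadjusted p under 0.05, both higher. Glul, the synthetase that makes glutamine, was at 626, 570, 506, 613 and 621 CPM in COPD replicates 1 to 5, against 582, 344, 309, 252 and 477 CPM in control replicates 1 to 5. Control replicate 1 lay inside the COPD range (log2 fold change 0.58 ± 0.20, adjusted p = 0.222, edgeR), and control replicate 1 was also the control highest in Slc38a3. Got1, the cytosolic aspartate aminotransferase, had a log2 fold change of 0.46 ± 0.19 (adjusted p = 0.305, edgeR), and of 0.24 without COPD replicate 4, which held 549 CPM beside 258 to 382 CPM in the other COPD libraries and 220 to 289 CPM in control.

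Of 21 tested genes of the amino acid starvation response 0 were called by edgeR and 2 by DESeq2, and the median log2 fold change was 0.03. The transcription factor gene Cebpb was at 137 ± 54.1 CPM in COPD and 55.3 ± 7.05 CPM in control (1.30 ± 0.26, adjusted p = 0.0795, edgeR). COPD replicate 5, at 54.4 CPM, lay inside the control range of 49.6 to 67.3 CPM, and the other COPD libraries were at 123 to 202 CPM. Cebpb passed by DESeq2 (adjusted p = 0.000335) and by edgeR without COPD replicate 5 (log2 fold change 1.51 ± 0.15, adjusted p = 0.000694), and missed in the other 9 fits that left out 1 library. Atf5, a transcription factor of the same response, was at 106 ± 22.6 CPM in COPD and 175 ± 54.1 CPM in control (-0.73 ± 0.22, adjusted p = 0.163, edgeR), and passed by DESeq2 as well (adjusted p = 0.0449). These were the 2 genes of the list (9.52%) with an unadjusted p under 0.05.

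Of 19 tested genes of branched-chain amino acid breakdown 0 were called by edgeR and 1 by DESeq2, and 2 (10.5%) had an unadjusted p under 0.05, both lower. Acadsb, a dehydrogenase of the isoleucine pathway, was at 77.0 ± 7.95 CPM in COPD and 108 ± 15.1 CPM in control, with no overlap between the groups, as for the 1.55% of all genes tested whose COPD libraries lay wholly below control (log2 fold change -0.49 ± 0.12, adjusted p = 0.0973, edgeR; adjusted p = 0.00953, DESeq2). Aldh6a1, of the valine pathway, had a log2 fold change of -0.36 ± 0.15 (adjusted p = 0.288, edgeR). Of 28 tested genes of lysosomal amino acid sensing 0 were called by edgeR or DESeq2 and 4 (14.3%) had an unadjusted p under 0.05, 3 higher and 1 lower. The Ragulator subunit genes Lamtor2 and Lamtor4 had log2 fold changes of 0.33 ± 0.10 and 0.38 ± 0.15, and Seh1l, a subunit shared with the nuclear pore, one of -0.25 ± 0.09. Seh1l also lay wholly below control, at 15.4 to 18.7 CPM in COPD and 19.3 to 20.5 CPM in control. The third higher gene was the Ragulator gene Lamtor1 (0.25 ± 0.11), named after its values were seen. Of 7 tested amino acid carriers of other families 0 were called by edgeR or DESeq2, and 2 (28.6%) had an unadjusted p under 0.05. Slc6a17 (log2 fold change 0.85 ± 0.34) rested on COPD replicate 3, at 7.20 CPM beside 1.99 to 2.81 CPM in the other COPD libraries and 1.44 to 2.04 CPM in control, and its log2 fold change was 0.38 without that library. The glycine transporter gene Slc6a9 had a log2 fold change of -0.36 ± 0.15.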

How the data were processed

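Expected counts (estimates, of which 30.7% were not whole numbers) and TPM were both deposited by the authors for the same genes, named by symbol. Build mm9 and the tools RSEM 1.2.12, Bowtie2 2.2.5, HISAT2 2.0.4 and DESeq2 1.4.5 are named, without role or order, in the submitters' processing notes. The reference annotation at hand was GRCm38, so it gave only names of overlapping genes and RefSeq promoter windows matched by symbol. Per the labels' protocols, polyadenylated RNA was fragmented and primed with random hexamers. Groups and replicate numbers came from the sample titles.

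Expected counts were rounded, filtered with filterByExpr, scaled by TMM and compared by edgeR 4.0.16 (glmQLFit, glmQLFTest) in R 4.3.3, with Benjamini-Hochberg adjustment over all 12697 genes and a threshold of 0.05. The standard error is the fold change's size over the square root of F. CPM values are TMM-scaled, and levels are compared between genes only as TPM. Alternatives were DESeq2 1.42.0, other scalings and filters, limma 3.58.1 on log2 TPM with a pseudocount of 1 or 0.1, voom with sample weights, a replicate block, leaving out each library, and the 7 libraries whose Ddx3y, Eif2s3y and Kdm5d together reached 1 CPM. The fit was also run on counts simulated from its own dispersions. These held no outlying library and no split in Y-linked RNA, and no result here rests on them.

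Per-library values and fold changes were given for transporters past the adjusted threshold or with an unadjusted p under 0.05 and for the 2 highest by TPM in each family, and values for up to 3 genes of each other list by smallest p; Slc38a4, Slc7a10, Lamtor1 and the other transporters named were added after their values were seen. The members and lists were chosen with earlier results of these data known. A library of 14085854 to 17251034 counts makes genes near 1 CPM rest on few counts. Libraries of a group all differed by more than sampling noise, with a chi-square of 18.1 to 95.9 for each degree of freedom.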

Additional observations from a re-analysis of the deposited data

Results flagged for a closer look

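Among 66 sets of 5 libraries with at least 10 counts of a gene, 3 held a library far from the other 4 by Dixon's test, which chance gives in about 1 of 20. Slc7a2 was at 71.1 CPM in COPD replicate 5 and between 28.6 and 34.9 CPM in the other COPD libraries. Slc7a10 was at 1.04 CPM in COPD replicate 5, and 0 counts were listed in the other COPD libraries. Slc38a1, a system A carrier, was at 0.814 CPM in COPD replicate 4 and between 0.221 and 0.367 CPM in the other COPD libraries; these are counts of 12 and of 3 to 6.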

How the results depend on the processing

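Of the 40 transporter genes 26 were tested in the main fit, and of these 1 was higher and 0 lower. Of all genes tested, 7 were higher and 1 lower. Among the transporters DESeq2 and voom with sample weights each gave 2 higher and 1 lower, the libraries with Y-linked counts 2 higher, and library size alone and unfiltered limma on log2(TPM + 1) 0 higher. Counts over all genes, higher and lower, were 263 and 151 with DESeq2, 86 and 51 with voom, 336 and 152 in the Y-linked libraries, 14 and 3 without the filter, and 2 and 4 with library size alone. Lower genes numbered 3 with upper-quartile scaling, 37 with limma on log2(TPM + 1), 31 on log2(TPM + 0.1) and 2 on log2(TPM + 1) without a filter, which called 0 higher (3675 at an unadjusted p under 0.05). Leaving out 1 library gave 0 to 2 higher and 0 to 2 lower transporters, with 0 to 263 higher and 0 to 147 lower genes overall. The highest counts came without COPD replicate 5, and without COPD replicate 2 there were 0 (1510 at an unadjusted p under 0.05). Slc3a2 changed sign with library size alone (-0.051), on log2(TPM + 1) with and without a filter (-0.12), on log2(TPM + 0.1) (-0.12) and in the Y-linked libraries (-0.024). Slc43a1 did so with library size alone (-0.015), on log2(TPM + 1) with and without a filter (-0.089) and on log2(TPM + 0.1) (-0.095). Leaving out 1 library put Slc1a5 between -0.23 and 0.00029 and Slc43a1 between -0.029 and 0.28. The TMM factors lay between 0.915 and 0.967 in COPD and between 0.963 and 1.135 in control, and scaling by library size alone leaves them out. The cause of these changes was not tested. Of 300 values of 25 single genes under 12 other settings, 278 kept direction and side of the threshold. Slc1a1 missed the threshold with library size alone (adjusted p = 0.0503, edgeR) and in unfiltered limma on log2(TPM + 1) (adjusted p = 0.0749). With the replicate number as a block Slc1a1 was again the 1 transporter called (log2 fold change 1.48, adjusted p = 0.0421, edgeR). Samples of the same number did not deviate together (correlation -0.14 to 0.04 over 5 pairs), so the numbers were not taken to pair them.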
